A study of Danio rerio with 184 samples.

Results

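The genes described here build the mechanotransduction apparatus of the hair cell, the complex that turns deflection of the hair bundle into a current. They were chosen by name: 10 gene names (tmc1, tmc2a, tmc2b, pcdh15a, cdh23, lhfpl5a, lhfpl5b, loxhd1b, strc and myo7aa) were matched to the symbols of the 12354 Ensembl gene rows of the count table, ignoring case and allowing the table's symbol to lack the final a or b. Of these names, 8 matched, and they gave 10 rows: TMC2 (ENSDARG00000030311 and ENSDARG00000033104), PCDH15 (ENSDARG00000098257 and ENSDARG00000008127), CDH23 (ENSDARG00000007561), LHFPL5 (ENSDARG00000045023), lhfpl5b (ENSDARG00000056458), LOXHD1 (ENSDARG00000074638 and ENSDARG00000094738) and MYO7A (ENSDARG00000099871). The names tmc1 and strc are not analysed here. The symbol table lists TMC2 for both identifiers and does not say which row is tmc2a and which is tmc2b, so the rows are told apart by identifier; the same holds for PCDH15 and LOXHD1. The table also lists MYO7A for a further identifier, ENSDARG00000044632, which is not analysed here, so whether the MYO7A row is myo7aa is not settled.

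Each sample is 1 cell, sorted from dissociated trunks of zebrafish larvae at 6 days post fertilization, and its transcripts were counted as unique molecular identifiers (UMIs, each a tagged molecule) by mcSCRB-seq, in which cells are lysed in plate wells and transcripts tagged at their 3′ ends. There were 92 cells labelled as Emx2 mutant (called mutant-label cells) and 92 wild-type cells. Larvae of both genotypes carried Tg[myo6b:actb1-EGFP], a transgene in which the promoter of the hair cell gene myo6b drives a green fluorescent actin, and green cells were sorted; neither genotype was treated. The labels give no allele for the mutation, and no animal, pool or clutch, so each genotype counts as 1 sample: there is no replicate check and no test, and all intervals are 95% intervals of counting error only. Mutant-label cells filled columns 1 to 6 and wild-type cells columns 7 to 12 of a plate labelled 2 and a plate labelled 4 (read from the first digit of the well code), so genotype and side of the plate cannot be told apart.

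TMC1 and TMC2 proteins are thought to form the pore of the transduction channel near the tips of stereocilia, with TMIE, LHFPL5 and CIB2 as partners, and TOMT is needed in zebrafish for Tmc proteins to reach the bundle. Cadherin 23 and protocadherin 15 join end to end as the tip link that pulls the channel open, and myosin 7A is a motor of the Usher protein complex at the link's upper end. In zebrafish, lhfpl5a is known from the inner ear and lhfpl5b from the lateral line, whose neuromasts in the skin sense the movement of water. LOXHD1 is a stereocilia protein, and LOXHD1, TMC1, PCDH15, CDH23, LHFPL5 and MYO7A are all human deafness genes.

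All 92 mutant-label cells and the 90 wild-type cells with at least 1000 UMIs (2 of plate 4 had fewer) entered the sums, with 545364 UMIs in mutant-label cells against 537512 UMIs in wild-type cells. Depth differed by plate: plate 2 had a median of 7560.5 UMIs per mutant-label and 6261.5 per wild-type cell, and plate 4 had 3682.5 per mutant-label cell and 3495 per wild-type cell. The hair cell marker list took 29.8% of UMIs in the median mutant-label cell and 27.8% in the median wild-type cell, and 9 of 14 marker rows were seen in at least 50% of cells; the supporting cell list took 0.0156% in the median mutant-label cell and 0.00622% in the median wild-type cell, and no row of the leukocyte or erythroid lists was found. The epidermis list took 0.204% in the median mutant-label cell and 0.205% in the median wild-type cell, with 2 of its 6 rows seen in at least 50% of cells, the muscle list took 0.0798% in the median mutant-label cell and 0.101% in the median wild-type cell, and the neuron list had a median of 0 in each genotype; their part in the results was not tested. The EMX2 transcript was at 193 CPM (a gene's count per 1000000 UMIs of its genotype) in mutant-label cells against 83.7 CPM in wild-type cells; a 3′ tag may lie outside the altered stretch, so this level does not check the label.

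The major TMC2 row, ENSDARG00000030311, and lhfpl5b were the most abundant of the 10 rows, and the intervals of their ratios between genotypes held 1 over all cells. A UMI is 1 tagged 3′ end whatever the transcript's length, so CPM were compared between genes without length scaling, although capture may differ between 3′ ends. The order in mutant-label cells was TMC2 ENSDARG00000030311 at 343 CPM, lhfpl5b at 193 CPM and TMC2 ENSDARG00000033104 at 110 CPM, each with an interval apart from the next. LOXHD1 ENSDARG00000074638, MYO7A and LOXHD1 ENSDARG00000094738 then lay between 49.5 and 58.7 CPM, with overlapping intervals. In wild-type cells the first 2 places were the same, with 320 and 193 CPM, and TMC2 ENSDARG00000033104, both LOXHD1 rows and MYO7A lay between 65.1 and 80 CPM with overlapping intervals. The tip-link rows CDH23 and PCDH15 were at 20.2 CPM or less in either genotype.

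**Figure D1:**
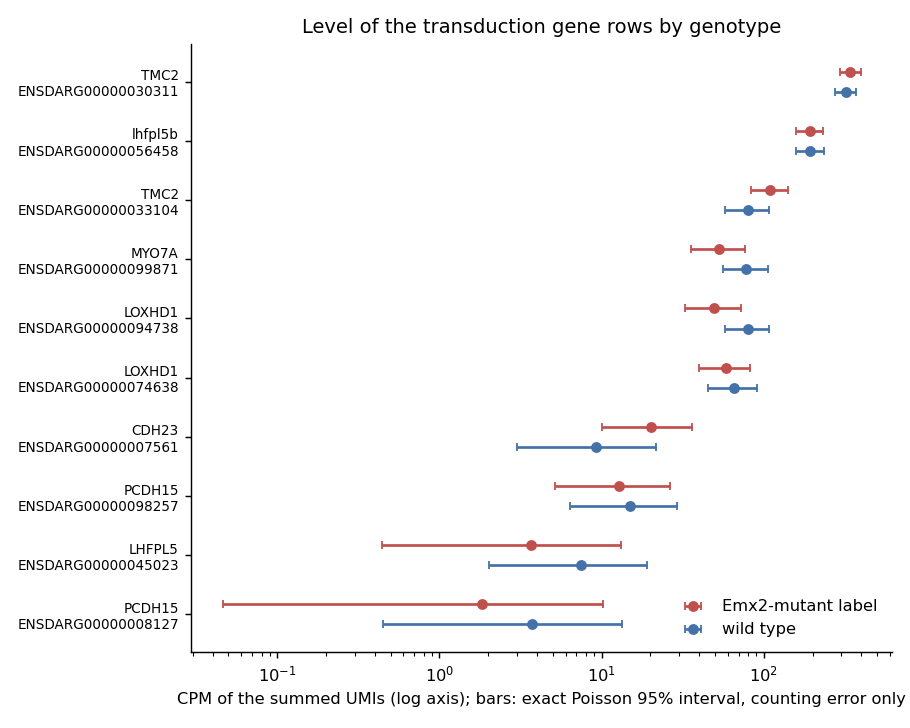
Level of each of the 10 gene rows in CPM on a log axis, in mutant-label (red) and wild-type (blue) cells; points are sums over 92 and 90 cells and bars are exact Poisson 95% intervals. TMC2 ENSDARG00000030311 lies highest at 343 CPM in mutant-label cells against 320 CPM in wild-type cells, and the tip-link rows lie at 20.2 CPM or less.

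By genotype, the counts of rows past 1.5-fold are given beside the shares of all genes, and whether they differ was not tested. Of the 8 rows with at least 10 UMIs in all, 1 was at least 1.5-fold higher in mutant-label cells (CDH23), where 21.3% of all 6287 genes of that depth were, and 1 was at least 1.5-fold lower (LOXHD1 ENSDARG00000094738), where 24.7% were. The median log2 ratio, mutant over wild type with 1 UMI added to each side, was -0.08 over the 8 rows and -0.05 over all genes. The remaining 2 rows, LHFPL5 and PCDH15 ENSDARG00000008127, had fewer than 10 UMIs.

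TMC2 ENSDARG00000030311, a pore-forming subunit gene, gave 187 UMIs in mutant-label cells against 172 UMIs in wild-type cells, with 0 to 13 UMIs per mutant-label cell (median 1) and 0 to 9 per wild-type cell (median 1). The ratio, mutant-label over wild type here and below, was 1.07 (0.87 to 1.33); it was 1.12 for plate 2 and 0.84 for plate 4. TMC2 ENSDARG00000033104, the lesser row, gave 60 and 43 UMIs in mutant-label cells and wild-type cells, at 0 to 11 UMIs per mutant-label cell and 0 to 8 per wild-type cell, with a median of 0 in each. Its ratio was 1.38 (0.91 to 2.08); plate 2 gave 1.29 and plate 4 gave 1.61. The highest mutant-label cell held 18.3% of that genotype's UMIs of this row. The ratio was 1.14 without the highest mutant-label cell alone, with all wild-type cells kept. In 14 mutant-label and 26 wild-type cells pvalb8, an abundant calcium buffer gene of hair cells, made up under 20% of UMIs. Without these cells the ratio was 0.87 (0.52 to 1.44). It was 1.498 as a ratio of the mean CPM per cell, and 2.04 (1.07 to 4.07) in 1 random draw of 2000 UMIs per cell before summing. In that draw 17 mutant-label and 14 wild-type cells held a UMI, against 14.1 and 12.8 averaged over all possible draws. The interval does not cover the spread between draws, and the ratio was not averaged over them.

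Among TMC2 UMIs, the row ENSDARG00000030311 supplied the larger part in both genotypes and on both plates. Its share was 75.7% (69.9 to 80.9) of TMC2 UMIs in mutant-label cells and 80% (74.02 to 85.1) in wild-type cells. Plate 2 cells had 78.6% (mutant-label) and 80.95% (wild type), and plate 4 cells had 63.04% (mutant-label, 47.5 to 76.8) and 76.6% (wild type, 61.97 to 87.7). All 4 intervals overlap one another, and that of plate 4 mutant-label cells holds an equal share of the 2 rows. Among the other tmc genes, tmc5 was near lhfpl5b in level, with 92 UMIs in mutant-label cells against 91 UMIs in wild-type cells, at 169 CPM in each, and tmc6b had 1 UMI in mutant-label cells and 0 in wild-type cells.

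Of the lhfpl5 genes, lhfpl5b supplied nearly all UMIs. It gave 105 UMIs in mutant-label cells, 0 to 8 per cell, and 104 UMIs in wild-type cells, 0 to 11 per cell. LHFPL5, the row that the name match gives for lhfpl5a, gave 2 UMIs in 2 mutant-label cells and 4 UMIs in 2 wild-type cells, 3 of these in 1 cell. The lhfpl5b share was thus 98.1% (93.4 to 99.8) in mutant-label cells against 96.3% (90.8 to 99.0) in wild-type cells. On plate 4 LHFPL5 had no UMI beside 23 lhfpl5b UMIs in mutant-label cells against 42 in wild-type cells, which allows a lhfpl5b share as low as 85.2% in the first and 91.6% in the second.

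The level of lhfpl5b was 193 CPM in each genotype, a ratio of 0.995 (0.75 to 1.32), but the plates went opposite ways. On plate 2 mutant-label cells were at 218 CPM and wild-type cells at 172 CPM (ratio 1.27, 0.90 to 1.80), while on plate 4 mutant-label cells were at 135 CPM and wild-type cells at 238 CPM (ratio 0.57, 0.33 to 0.97). The 2 intervals overlap, and whether the ratio differs between plates was not tested. On plate 2, 34 of 46 mutant-label cells and 24 of 46 wild-type cells held a lhfpl5b UMI. On plate 4, 14 of 46 mutant-label cells and 21 of 44 wild-type cells held one.

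The tip-link genes were sparse. CDH23, the upper cadherin of the tip link, had 11 UMIs in 6 mutant-label cells, of which 5 were in 1 cell, and 5 UMIs in 5 wild-type cells. The ratio was 2.17 (0.69 to 7.96), and 15 of the 16 UMIs came from plate 2. Without the mutant-label cell with most UMIs, and with all wild-type cells kept, it was 1.20 (0.30 to 4.97). Without the cells low in pvalb8 it was 1.497, and both values are under 1.5-fold. PCDH15 ENSDARG00000098257, a row for the lower cadherin, had 7 UMIs in 4 mutant-label and 8 UMIs in 3 wild-type cells, and 6 of the 8 lay in 1 wild-type cell of plate 4. Its ratio of 0.86 (0.27 to 2.72) became 3.43 without that wild-type cell alone. The highest mutant-label cell, with 4 of the 7 UMIs, was kept. PCDH15 ENSDARG00000008127 had 1 mutant-label and 2 wild-type UMIs. The further protocadherin row pcdh15b (ENSDARG00000071772), whose zebrafish gene is known from photoreceptors, was not among the names searched; it had more UMIs than either PCDH15 row, 21 in mutant-label cells against 11 in wild-type cells (ratio 1.88, 0.87 to 4.32).

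MYO7A, the stereocilia motor, had 29 UMIs in 18 mutant-label cells and 42 UMIs in 23 wild-type cells. Its level was 53.2 CPM (mutant-label) and 78.1 CPM (wild type), a ratio of 0.68 (0.41 to 1.12), with 0.79 on plate 2 and 0.45 on plate 4. LOXHD1 ENSDARG00000074638 had 32 UMIs in 18 mutant-label cells and 35 UMIs in 25 wild-type cells, a ratio of 0.90 (0.54 to 1.5). LOXHD1 ENSDARG00000094738 had 27 UMIs in 19 mutant-label cells and 43 UMIs in 24 wild-type cells, a ratio of 0.62 (0.37 to 1.02). For that row, plate 2 gave 9 UMIs in mutant-label cells against 25 in wild-type cells (ratio 0.35, 0.14 to 0.77), while plate 4 gave 18 in each (ratio 1.04, 0.51 to 2.12). Without the cells under 20% pvalb8 it was 0.35 (0.17 to 0.68).

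The larger TMC2 row differed between the plates in both genotypes. TMC2 ENSDARG00000030311 was at 399 CPM on plate 2 and 187 CPM on plate 4, a ratio of 2.13 (1.62 to 2.83), and the ratio was 2.47 (1.65 to 3.81) in mutant-label cells against 1.85 (1.27 to 2.75) in wild-type cells. Plate is a label here, and what else differed between the plates is not given. LOXHD1 ENSDARG00000094738 went the other way, at 46.2 CPM on plate 2 and 104 CPM on plate 4 (ratio 0.44, 0.27 to 0.73), with 0.23 in mutant-label cells against 0.68 in wild-type cells. Of LOXHD1 UMIs in mutant-label cells, ENSDARG00000094738 held 26.5% (12.9 to 44.4) on plate 2 and 72% (50.6 to 87.9) on plate 4, so the more abundant row was not the same on each plate. In wild-type cells the shares were 53.2% on plate 2 and 58.1% on plate 4. For lhfpl5b, plate 2 over plate 4 was 1.04 (0.77 to 1.42), for TMC2 ENSDARG00000033104 it was 1.26 (0.81 to 2.02), and for MYO7A 1.20 (0.70 to 2.13). In all, 2 of the 8 rows were at least 1.5-fold higher on plate 2 (the larger TMC2 row and CDH23), against 37.8% of all genes, and 2 were at least 1.5-fold lower (LOXHD1 ENSDARG00000094738 and PCDH15 ENSDARG00000098257), against 26.3%.

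Detection per cell was high for the TMC2 genes where cells were deep. With all UMIs, either TMC2 row was seen in 45 of 46 mutant-label cells and 43 of 46 wild-type cells of plate 2, and in 21 of 46 mutant-label and 23 of 44 wild-type cells of plate 4. Over both plates TMC2 ENSDARG00000030311 was seen in 54 of 92 mutant-label cells (58.7%) and 60 of 90 wild-type cells (66.7%), TMC2 ENSDARG00000033104 in 30 mutant-label and 27 wild-type cells, and lhfpl5b in 48 mutant-label and 45 wild-type cells. Each LOXHD1 row and MYO7A was seen in 18 or 19 mutant-label and 23 to 25 wild-type cells. The data hold no cells of a type free of these genes, so the part of the shares that free RNA could give was not measured.

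Since depth differs between plates, each cell was also thinned to 2000 UMIs, which left 89 mutant-label and 88 wild-type cells. TMC2 ENSDARG00000030311 was then seen in 37 mutant-label cells (41.6%, 31.2 to 52.5) and 33 wild-type cells (37.5%, 27.4 to 48.5). On plate 2 it was in 30 of 46 mutant-label cells and 22 of 45 wild-type cells, and on plate 4 in 7 of 43 mutant-label and 11 of 43 wild-type cells. The draw was high for plate 2 mutant-label cells: averaged over all possible draws, 23 mutant-label and 24.1 wild-type cells of plate 2 kept a UMI, and 9.73 mutant-label and 11.1 wild-type cells of plate 4. On average the plate difference thus remained at equal depth in both genotypes, while the intervals of the genotypes overlapped on each plate. lhfpl5b was seen in 27 mutant-label (30.3%) and 30 wild-type cells (34.1%), and TMC2 ENSDARG00000033104 in 17 mutant-label (19.1%) and 14 wild-type cells (15.9%). The draw was high for these rows too. Averaged over draws, lhfpl5b was in 24.4 mutant-label and 24.3 wild-type cells, and TMC2 ENSDARG00000033104 in 14.1 mutant-label and 12.8 wild-type cells. LOXHD1 ENSDARG00000094738 was in 0 of 46 mutant-label cells of plate 2 (up to 7.71%; 2.21 cells averaged over draws), in 5 of 45 wild-type cells there, and in 7 of 43 cells of each genotype on plate 4.

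**Figure D2:**
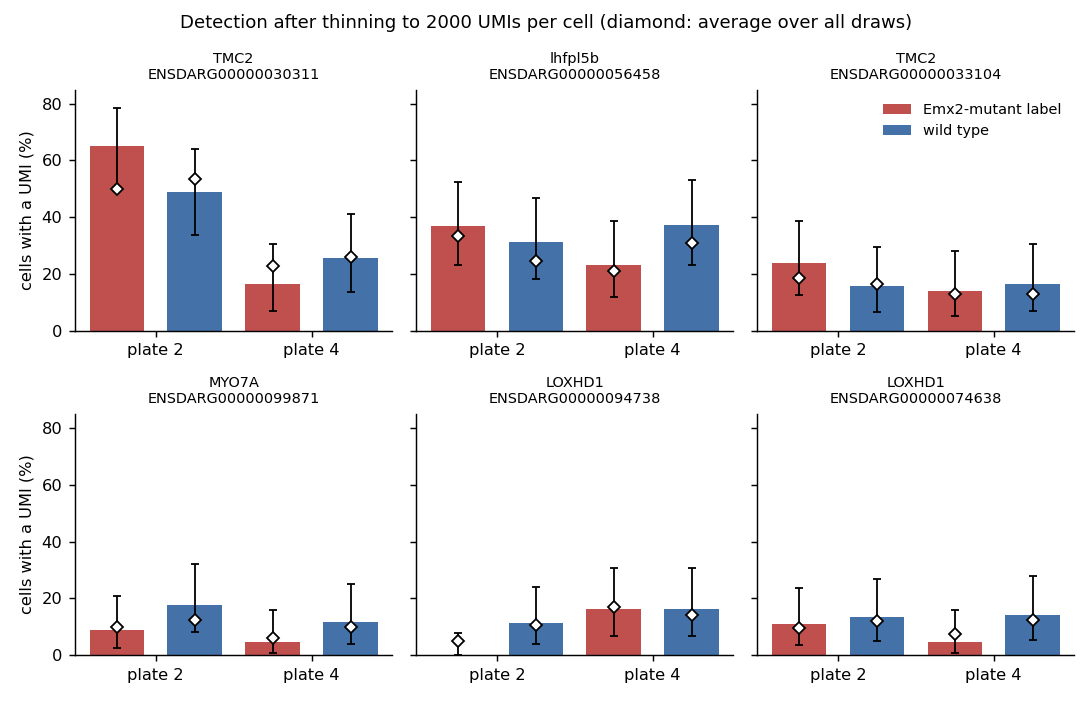
Percent of cells with at least 1 UMI of the 6 most abundant gene rows after thinning to 2000 UMIs, by plate, with mutant-label cells (red) left of wild-type cells (blue); bars on the columns are exact binomial 95% intervals and diamonds the average over all draws. TMC2 ENSDARG00000030311 is seen in more cells on plate 2 than on plate 4 in both genotypes, with averages of 23 of 46 mutant-label and 24.1 of 45 wild-type cells on plate 2 and 9.73 and 11.1 of 43 cells, in that order, on plate 4.

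Most TMC2-positive cells showed the larger row, alone or with the other. With all UMIs, mutant-label cells split into 18 with both rows, 36 with ENSDARG00000030311 alone, 12 with ENSDARG00000033104 alone and 26 with neither, and wild-type cells into 21, 39, 6 and 24 cells in the same classes. Independent detection within genotype and plate gives 20.7 mutant-label and 19.8 wild-type cells with both. At 2000 UMIs, 4 mutant-label and 6 wild-type cells held both rows, where independence gives 8.15 mutant-label and 5.21 wild-type cells, and averaged over draws the numbers were 4.09 against 5.51 in mutant-label and 5.44 against 5.33 in wild-type cells. Co-detection was close to independence in wild-type cells, and below it in mutant-label cells by less than 2 cells on average. No class of cells that use only 1 of the 2 rows can be read from these counts, since a cell with neither or with 1 may have lost the other to sampling.

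The 2 mutant-label cells richest in TMC2 ENSDARG00000033104 held 11 and 8 of its UMIs and 0 of ENSDARG00000030311. They came from plate 2 and plate 4, had 6795 and 2599 UMIs in all, 3 and 5 UMIs of LOXHD1 ENSDARG00000094738, and 16.9% and 17.3% pvalb8. A further 2 mutant-label cells held 3 UMIs each, together with 6 and 2 of ENSDARG00000030311. The 2 richest wild-type cells held 8 and 5 UMIs together with 6 and 1 of ENSDARG00000030311. At the other end, the 4 mutant-label cells richest in ENSDARG00000030311 held 13, 11, 10 and 9 UMIs and 0 of ENSDARG00000033104, while the 4 wild-type cells richest in it held 9, 9, 8 and 7 UMIs with 0, 1, 1 and 1 of the other. These cells were picked by their values and are given as a description.

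**Figure D3:**
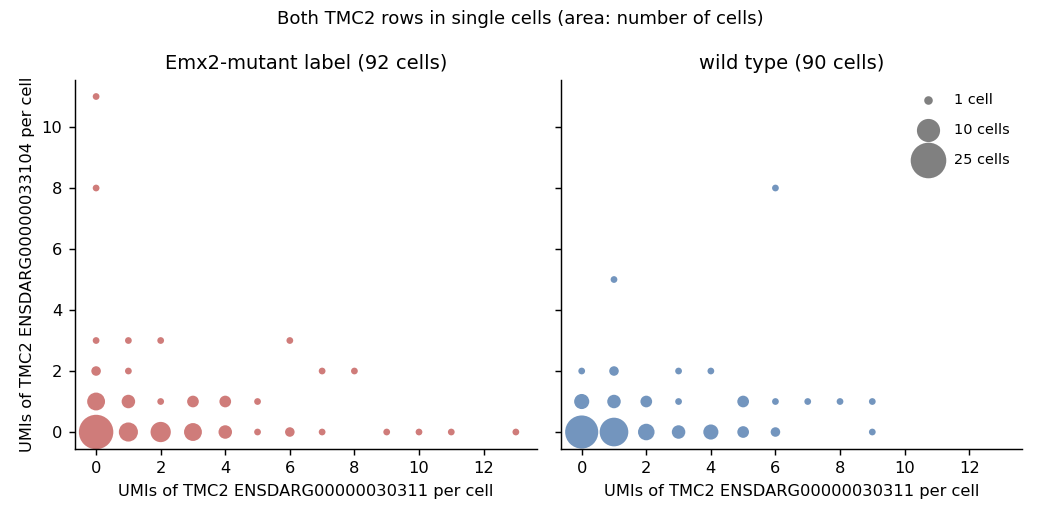
UMIs of TMC2 ENSDARG00000033104 against UMIs of TMC2 ENSDARG00000030311 in single cells, mutant-label on the left (92 cells) and wild type on the right (90 cells); the area of a point is the number of cells. The mutant-label cells with 11 and 8 UMIs on the vertical axis have 0 on the horizontal axis, and the wild-type cell with 8 has 6.

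Among the 10 rows, spread over cells in 1 draw of thinned counts was largest for the lesser TMC2 row over both genotypes and in mutant-label cells. It was not the largest in wild-type cells. Before thinning, 11 and 8 of its 60 mutant-label UMIs lay in 2 of 30 positive cells. In the draw its variance over mean was 3.20 in mutant-label cells against 0.97 in wild-type cells (1 is the value of pure counting). The highest mutant-label cell kept 7 UMIs of the row in that draw and the highest wild-type cell 2. LOXHD1 ENSDARG00000094738 was at 2.73 in mutant-label and 1.33 in wild-type cells, and lhfpl5b at 1.35 and 1.66, in that order. Over both genotypes the lesser TMC2 row was at 2.49, where 352 genes with like UMI totals had a median of 1.47 and 2.84% lay above it. None of these values was averaged over draws, so the part of the draw in the difference between genotypes was not measured. TMC2 ENSDARG00000030311, at 1.56, and lhfpl5b, at 1.51, lay near the medians of genes of like counts, 1.498 and 1.55. If every cell of a genotype and plate held the same level, TMC2 ENSDARG00000030311 would be seen on plate 2 in 43.9 mutant-label and 40.8 wild-type cells, and it was seen in 39 mutant-label and 43 wild-type cells. On plate 4 equal levels give 20.9 mutant-label and 23.6 wild-type cells, and it was seen in 15 mutant-label and 17 wild-type cells. Detection was thus below this number on both plates in mutant-label cells, and in wild-type cells below it on plate 4 and above it on plate 2.

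Joint detection of each TMC2 row with lhfpl5b was close to independence over both plates. TMC2 ENSDARG00000030311 and lhfpl5b were seen together in 35 mutant-label and 30 wild-type cells with all UMIs, where independence within genotype and plate gives 33.4 mutant-label and 30.5 wild-type cells. At 2000 UMIs they shared 21 cells against 23.7, or 17.5 against 19.1 averaged over draws. TMC2 ENSDARG00000033104 and lhfpl5b shared 34 cells against 31.9 with all UMIs, and 6.96 against 7.497 on average at 2000 UMIs. All 11 cells with a CDH23 UMI also held TMC2 ENSDARG00000030311, against 9.24 cells if independent; 10 of the 11 were on plate 2, where that row is in most cells.

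Of the 45 pairs among the 10 rows, 12 had at least 3 thinned cells expected, and 3 of these shared more cells and 9 fewer than independence gives, with ratios of 0.61 to 1.67 and a median of 0.89. Averaged over draws, 9 pairs had 3 cells expected, with ratios of 0.81 to 1.21. With all UMIs 15 of 23 pairs shared more cells and 8 fewer, with a median ratio of 1.09. Cells differ in depth in these counts, and the part of depth in the ratios was not tested. The lowest of the 23 was CDH23 with MYO7A, in 0 cells against 3.35. The pair furthest above independence with all UMIs was LOXHD1 ENSDARG00000094738 with MYO7A, in 16 cells against 9.45. The lesser TMC2 row also met LOXHD1 ENSDARG00000074638 more often, in 8 mutant-label cells against 6.65 and 12 wild-type cells against 8.10. Counts of this size move with sampling, and none was tested.

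**Figure D4:**
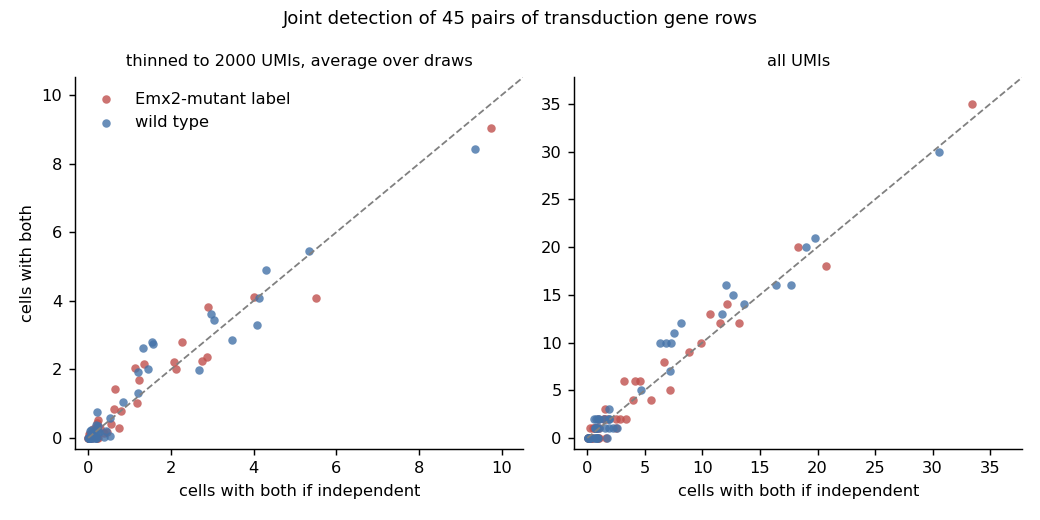
Cells holding both genes of a pair against the number that independent detection within plate gives, for 45 pairs in mutant-label (red) and wild-type (blue) cells; the left panel is the average over draws of 2000 UMIs, the right panel uses all UMIs and the dashed line marks equality. The highest point of the right panel is TMC2 ENSDARG00000030311 with lhfpl5b, at 35 mutant-label cells against 33.4.

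Partners of the channel were present at levels above those of the tip-link rows. CIB2, a calcium-binding channel partner, had 82 UMIs in mutant-label cells against 55 UMIs in wild-type cells (ratio 1.47, 1.03 to 2.11), with 1.56 on plate 2 and 1.04 on plate 4. TOMT had 47 UMIs in mutant-label cells, against 32 in wild-type cells (ratio 1.45, 0.90 to 2.34). The gene tmie, whose protein is part of the channel complex, had 40 UMIs in mutant-label cells, against 52 in wild-type cells (ratio 0.76, 0.49 to 1.17). Of 5 components (either TMC2, either lhfpl5, tmie, CIB2 and TOMT), a cell showed a median of 2 in each genotype with all UMIs. All 5 were seen in 1 mutant-label cell and 0 wild-type cells. None was seen in 6 mutant-label cells and 5 wild-type cells, all of plate 4. By plate, the median with all UMIs was 3 in mutant-label and 2 in wild-type cells of plate 2, and 1 in each genotype on plate 4. In 1 draw of 2000 UMIs the median was 1 in each genotype, and no cell showed all 5. Averaged over draws at 2000 UMIs, TMC2 ENSDARG00000030311 shared 9.55 cells with TOMT against 8.96, 7.78 with tmie against 8.26 and 12.8 with CIB2 against 13.2. Some other pairs lay further from independence with all UMIs, and the genotypes went opposite ways. CIB2 shared 7 mutant-label cells with tmie (11.2 if independent) and 8 wild-type cells (7.41). With TOMT it shared 7 mutant-label (10.5) and 9 wild-type cells (7.27). With TMC2 ENSDARG00000033104 it shared 14 mutant-label (12.7) and 6 wild-type cells (9.81). None was tested.

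Over the 10 rows and with all UMIs, a mutant-label cell showed a median of 2 rows and at most 6, and a wild-type cell the same. No row was seen in 11 mutant-label and 6 wild-type cells, again all of plate 4, and 3 or more rows were seen in 35 mutant-label and 36 wild-type cells.

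The wider hair bundle lists held about as many higher as lower genes. Of 45 measured genes in 6 lists, 8 were at least 1.5-fold higher in mutant-label cells (21.3% of all genes were) and 7 at least 1.5-fold lower (24.7% of all genes), with a median log2 ratio of 0.01. In the transduction channel list 0 of 6 passed 1.5-fold either way (median 0.27). In the tip link and Usher list 3 of 6 were higher and 0 lower (median 0.27): CDH23, pcdh15b and ptprq, a stereocilia shaft phosphatase gene with 11 mutant-label and 7 wild-type UMIs. All 3 had at most 32 UMIs in all, and their intervals hold 1. USH1C, which encodes harmonin, the scaffold at the upper end of the tip link, had 13 UMIs in each genotype, and the scaffold gene USH1G had 3 mutant-label and 2 wild-type UMIs. In the ankle link list, ADGRV1, the giant receptor of the ankle link, had 25 UMIs in mutant-label cells against 16 in wild-type cells (ratio 1.54). CLRN1 had 6 mutant-label and 15 wild-type UMIs (ratio 0.39), and CLRN2 had 26 mutant-label and 28 wild-type UMIs. WHRN ENSDARG00000075362 had 0 mutant-label and 4 wild-type UMIs, and a further WHRN row, ENSDARG00000068166, had 1 UMI in each genotype.

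The stereocilia actin list had 4 of 25 genes at least 1.5-fold higher and 5 lower; the median log2 ratio was 0.01. Its most abundant row, TWF2 ENSDARG00000009727, for an actin regulator of stereocilia length, had 420 UMIs in mutant-label cells against 429 UMIs in wild-type cells (ratio 0.96). A further TWF2 row, ENSDARG00000094792, had 76 mutant-label and 58 wild-type UMIs (ratio 1.29, 0.91 to 1.85). MYO6 ENSDARG00000042141, for a motor at the stereocilia base, had 286 mutant-label and 210 wild-type UMIs (ratio 1.34, 1.12 to 1.61). The ratio was alike on plate 2 (1.35) and plate 4 (1.33). A further MYO6 row, ENSDARG00000044016, had 12 mutant-label and 6 wild-type UMIs (ratio 1.97, 0.68 to 6.40). triobpa, of the actin rootlet gene family, had 193 mutant-label and 190 wild-type UMIs (ratio 1.001), and SMPX, a small muscle and hair cell protein gene, 140 mutant-label and 113 wild-type UMIs (ratio 1.22). Lower on each plate was grxcr1b, a gene related to a human deafness gene of stereocilia, with 70 mutant-label and 129 wild-type UMIs (ratio 0.53, 0.39 to 0.72), 0.48 on plate 2 and 0.64 on plate 4. On the same side on both plates was also myo1ca (6 mutant-label and 16 wild-type UMIs, ratio 0.37). So were XIRP2 ENSDARG00000071113 (10 mutant-label and 15 wild-type UMIs, 0.66) and GPSM2 (13 mutant-label and 8 wild-type UMIs, 1.60). PLS1 (14 mutant-label and 6 wild-type UMIs, 2.30) was on the same side on both plates too. A further XIRP2 row, ENSDARG00000091090, had 0 mutant-label and 2 wild-type UMIs. GRXCR1, the row with a symbol like that of grxcr1b, was not lower, with 46 mutant-label and 42 wild-type UMIs (ratio 1.079, 0.69 to 1.68). In the bundle surface list, ATP2B1, a calcium pump, had 1540 mutant-label and 1485 wild-type UMIs (ratio 1.02), and its relative atp2b2, known as the calcium pump of stereocilia in mammals, 81 mutant-label and 62 wild-type UMIs (ratio 1.29, 0.91 to 1.82). The otogelin genes OTOG (2 mutant-label UMIs, 1 wild-type UMI) and OTOGL (0 mutant-label and 3 wild-type UMIs) were near absent.

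**Figure D5:**
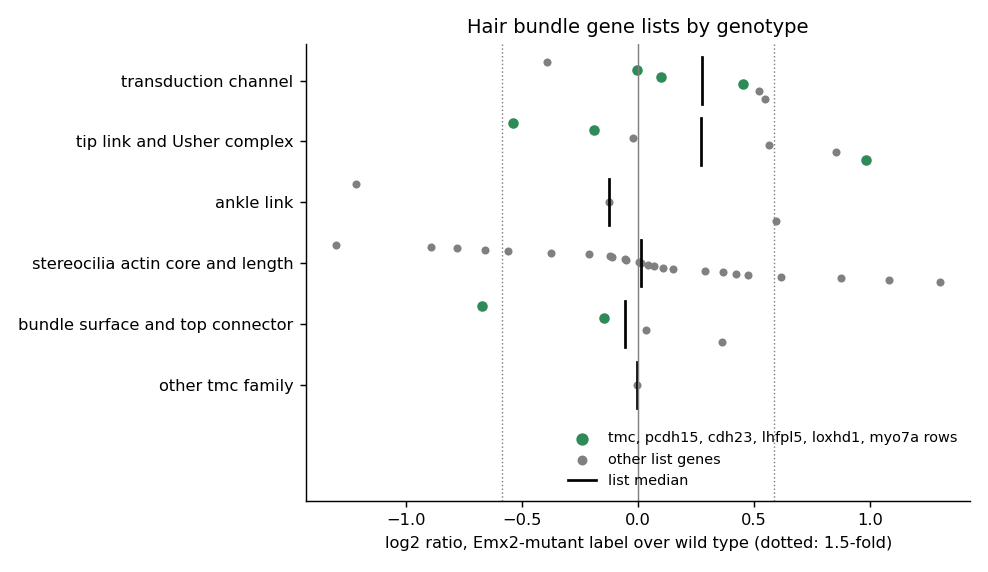
Log2 ratio, mutant-label over wild type with 1 UMI added to each side, of the 45 measured genes of 6 hair bundle lists; green points are rows of the genes named at the outset, grey points other list genes, black lines list medians and dotted lines 1.5-fold. The channel list has its median at 0.27 and the stereocilia actin list at 0.01; calls in the text use the ratio with no UMI added.

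With the transcription factor gene EMX2 at 2000 UMIs, TMC2 ENSDARG00000030311 shared 8 mutant-label cells (8.475 if independent) and 3 wild-type cells (5.003), and lhfpl5b shared 4 mutant-label cells (6.49) and 6 wild-type cells (5.28). With ATOH1, the gene of the factor that starts hair cell differentiation, the major TMC2 row shared 6 mutant-label cells (4.4) and 8 wild-type cells (6.26), and lhfpl5b 6 mutant-label cells (3.48) and 9 wild-type cells (6.70). These are single draws with few cells and describe no relation.

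No gene reached the correlation across cells that was set for naming a gene like the channel genes. For TMC2 ENSDARG00000030311 and lhfpl5b, the rows seen in at least 50% of cells of each genotype, the highest mean Spearman correlation within genotype and plate over 616 genes was 0.25 and 0.21, under the 0.3 set for naming a gene. Both rows had a median of at most 1 UMI per cell in each genotype. Sampling lowers correlations of such counts, so these values do not show that no gene follows the rows.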

How the data were processed

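The values deposited by the authors are UMI counts, whole and not normalized, with genes in rows and cells in columns. The submitters' processing notes name STAR 2.6.0a and GRCz11; how UMIs were counted is not given in the sources used here. A symbol table named 11707 of 12354 Ensembl rows. The 54 spike-in rows (5.15% of UMIs) were left out of library sizes. Cells under 1000 UMIs were left out, UMIs were summed per genotype and plate, and CPM were computed here. Intervals are exact Poisson for a level, exact conditional for a ratio and exact binomial (Clopper-Pearson) for a share. Detection was compared after thinning to 2000 UMIs (seed 1); the exact average over all draws was added after seeing the data. Expected joint detection multiplied shares within genotype and plate. Each sample is given as a sorted cell in its own well. Doublets were not called, so wells that took more than 1 cell were not looked for. The deepest plate 2 wild-type sample had 33325 UMIs against a median of 6261.5 for that group. Named are all rows of the chosen genes and, from each list, up to 4 genes with most UMIs and those with at least 20 UMIs and a ratio past 1.5 on the same side on both plates. Further rows of a named symbol are also given, and GRXCR1 beside grxcr1b. Members and lists were chosen with earlier results of these data known. Alternatives included edgeR 4.0.16 and DESeq2 1.42.0 factors, each plate alone and cells left out. Ratio and joint steps were tested on simulated data, for genes more abundant than the sparsest rows here. The simulated cells had equal levels with no plate difference, and joint detection was tried at 1000 UMIs per cell. Sparse rows, uneven cells and the 2000 UMIs used here were thus not covered. Code ran in R 4.3.3 and in Python 3.11.15 (pandas 2.3.3, scipy 1.17.1, numpy 2.4.6; matplotlib 3.10.9 for plots).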

Additional observations from a re-analysis of the deposited data

How the results depend on the processing

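Of 283 recomputed values, 227 stayed within the interval of the reported one. Among the 227 were 30 list medians, whose interval comes from the ordered ratios of the list's genes and is not counting error. For short lists it is the whole range of the genes, which a median can hardly leave, so these 30 say little on stability. The ratio of LOXHD1 ENSDARG00000094738, 0.62 over all cells, was 1.04 on plate 4 alone. Other ratios with intervals that hold 1 also crossed 1. PCDH15 ENSDARG00000098257, 0.86, was 2.88 on plate 2 alone, 1.497 without cells under 20% pvalb8 and 3.43 without its highest wild-type cell. TMC2 ENSDARG00000033104, 1.38, was 0.87 without the cells low in pvalb8. TMC2 ENSDARG00000030311, 1.07, was 0.84 on plate 4 alone, 0.98 without the cells low in pvalb8 and 0.96 as a mean of CPM per cell. LOXHD1 ENSDARG00000074638, 0.90, was 1.09 on plate 2 alone and 1.04 without its highest wild-type cell. The ratio of lhfpl5b, 0.995, was above 1 in 5 settings, up to 1.27 on plate 2 alone. The summed ratio of all 10 rows, 0.992, was 0.757 on plate 4 alone and 0.864 without cells under 20% pvalb8. The larger TMC2 row's share in mutant-label cells was 63.04% on plate 4, 81.4% without the cells low in pvalb8 and 68.04% in 1 draw of thinned counts. The lhfpl5b share was 100% on plate 4 in both genotypes, and in wild-type cells 100% without the cells low in pvalb8 and 99.0% without the cell with most LHFPL5 UMIs. Cells shared by TMC2 ENSDARG00000033104 and lhfpl5b, 0.976 of independence, were 0.25 of it on plate 4 alone. The cause was not tested. TMM or DESeq2 factors left the counts of rows past 1.5-fold at 1 higher and 1 lower. Plate 4 alone gave 1 higher and 4 lower of 7, and 1 draw of thinned counts 1 higher and 3 lower. Leaving out the cells low in pvalb8 gave 0 higher and 2 lower. Leaving out 1 cell per row, the highest of the genotype with the higher level, gave 1 higher and 0 lower. This removal takes UMIs from 1 genotype only, so it does not show the fold when each genotype loses its highest cell. The share of all genes past 1.5-fold was not computed in these settings, so these counts describe no property of the rows. No paired analysis was possible because each genotype is 1 sample and replicate numbers follow accession order. Depth limits CDH23, PCDH15 and LHFPL5 most.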

Other observations

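The row strc1 (ENSDARG00000079336), named for stereocilin, a protein of the links between stereocilia tops, does not match the name strc and was picked after its values were seen. It had 132 UMIs in 50 of 92 mutant-label cells and 71 UMIs in 41 of 90 wild-type cells, at 242 CPM in mutant-label and 132 CPM in wild-type cells. The ratio was 1.83 (1.36 to 2.48), and by plate 2.05 (1.46 to 2.92) for plate 2 and 1.20 (0.63 to 2.29) for plate 4. The highest mutant-label cell held 15 UMIs and the highest wild-type cell 5.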
